A study of Mus musculus with 2 samples.

Results

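Voltage-gated sodium channels are built from a large pore-forming alpha subunit and smaller beta subunits, and 8 genes of this family were examined in adult mouse heart. Members were picked by gene symbol: the alpha subunit genes Scn1a, Scn3a, Scn4a, Scn7a and Scn10a, and the beta subunit genes Scn2b, Scn3b and Scn4b. They are 8 of the 14 annotated genes whose symbol is Scn, a number and the letter a or b, among 55536 annotated genes; the other members of the family were not analysed here, so shares given below are shares of these 8 genes and not of all sodium channel RNA. The tissue was whole heart from 2 female B6CASTF1/J mice aged 8 to 10 months, which are offspring of a cross between C57BL/6J and CAST/EiJ. Both hearts form 1 untreated group with 1 total RNA library each, called replicate 1 and replicate 2 below. The labels give no chamber or region, so working myocardium, conduction tissue, vessels, nerves and connective tissue all enter the RNA.

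In heart muscle the alpha subunit opens on depolarisation and carries the fast inward sodium current that starts the action potential and lets it spread from cell to cell. Beta subunits are single-span membrane proteins with an extracellular immunoglobulin-like domain. They alter the gating and surface amount of the alpha subunit and also act in cell adhesion. Members of the family are used by different excitable tissues, among them skeletal muscle, brain and sensory neurons.

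The libraries held 42223411 and 40553237 expected counts, that is, reads assigned to genes by estimation, and a count of 0 allows up to 3 counts. Levels are in TPM, transcript numbers scaled to a total of 1000000 per library after division by length, so they can be compared between genes. Deposited credibility bounds follow some of them; the sources used here do not give their level. All 7 cardiomyocyte marker genes were expressed, with summed levels of 34840 and 30620 TPM in replicates 1 and 2; the highest were the myosin genes Myl2 (9141 ± 521.7 TPM) and Myh6 (8288 ± 744.7 TPM) and the actin gene Actc1 (4691 ± 1054 TPM; SD, n = 2 each). With 2 animals of 1 group no test between groups exists, and the smallest two-sided p of an exact sign-flip test is 0.5. In whole tissue, fewer cells of a type and less RNA per cell cannot be told apart.

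The level reported for Scn4a depends on a short noncoding transcript just upstream of its coding transcript, and the sequences there are shown first for that reason. Scn4a lies at chr11:106318592-106353288 on the minus strand of GRCm38 (mm10). Its transcript Scn4a-201 has 24 exons and 6598 bases, starts directly at the ATG of a 5523-base coding sequence in this annotation, and has 0 annotated bases before it. Its other transcript, Scn4a-202, is annotated as a processed transcript without a coding sequence and has 443 bases in 2 exons. The first exon of Scn4a-202 spans chr11:106353183-106353288, the second spans chr11:106349455-106349791, and an intron of 3391 bases separates them. No base of Scn4a-202 lies in an exon of Scn4a-201: it ends with 65 bases between it and the first base of Scn4a-201. The RefSeq promoter window of Scn4a (GRCm38.p6, chr11:106349341-106349640, minus strand, 5′ to 3′) covers this join. Its 186 capital letters are the part that lies in exon 2 of Scn4a-202, and its last 49 bases are the start of Scn4a-201, beginning with the ATG.
Scn4a window: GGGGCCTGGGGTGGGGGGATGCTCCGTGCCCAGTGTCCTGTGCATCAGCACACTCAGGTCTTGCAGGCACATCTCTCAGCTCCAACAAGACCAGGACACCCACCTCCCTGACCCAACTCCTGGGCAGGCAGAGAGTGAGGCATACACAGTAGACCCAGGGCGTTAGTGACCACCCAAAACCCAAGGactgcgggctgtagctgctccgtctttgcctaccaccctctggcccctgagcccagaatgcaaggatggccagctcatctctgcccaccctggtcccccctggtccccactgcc

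The splice junction that is particular to Scn4a-202 is shown because reads across it can belong to no other annotated Scn4a transcript. Lower case marks the 106 bases of exon 1, and capitals mark the first 30 bases of exon 2, read 5′ to 3′ on the minus strand from the GENCODE M21 transcript.
Scn4a-202 junction: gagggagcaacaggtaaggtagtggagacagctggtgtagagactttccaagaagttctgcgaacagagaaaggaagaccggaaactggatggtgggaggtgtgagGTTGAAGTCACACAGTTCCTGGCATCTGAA
None of the 413 words of 31 bases in Scn4a-202 occurs in Scn4a-201 or in a transcript of another gene, so reads of these words have 1 place in the annotation. In the map of the 5′ end, the Scn4a-202 exons sit upstream of the first Scn4a-201 exon with no overlap.

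**Figure D1:**
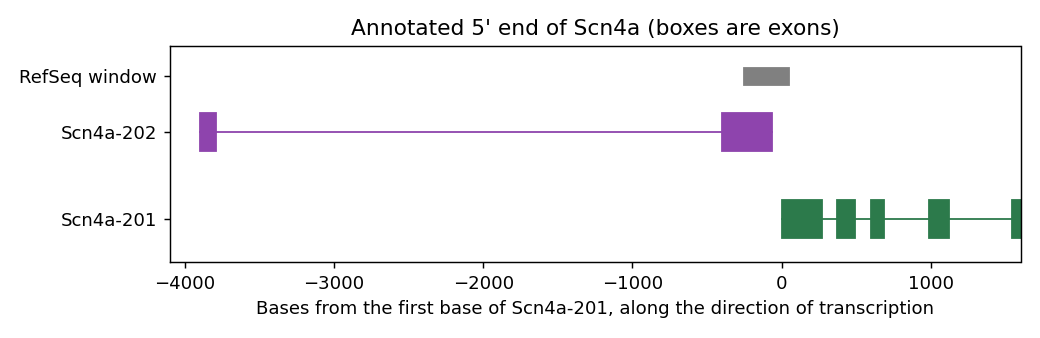
Annotated exons (boxes) of the 2 Scn4a transcripts and the RefSeq promoter window along the direction of transcription, in bases from the first base of Scn4a-201. Scn4a-202 starts 3899 bases before Scn4a-201 and shares 0 bases with its exons.

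Of the 8 genes, 3 were expressed at 1 TPM or more in both hearts: the beta subunit gene Scn4b and the alpha subunit genes Scn4a and Scn7a. The remaining 5 (Scn2b, Scn3b, Scn10a, Scn3a and Scn1a) were under 1 TPM in both. Among all 22028 protein-coding genes the same rule was met by 48.7%, so a share of 3 in 8 lies near that background. Summed over the 8 genes, levels were 28.07 and 19.66 TPM in replicates 1 and 2. On average 42.4% of that sum came from Scn4b, 40.4% from Scn4a and 12.9% from Scn7a.

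**Figure D2:**
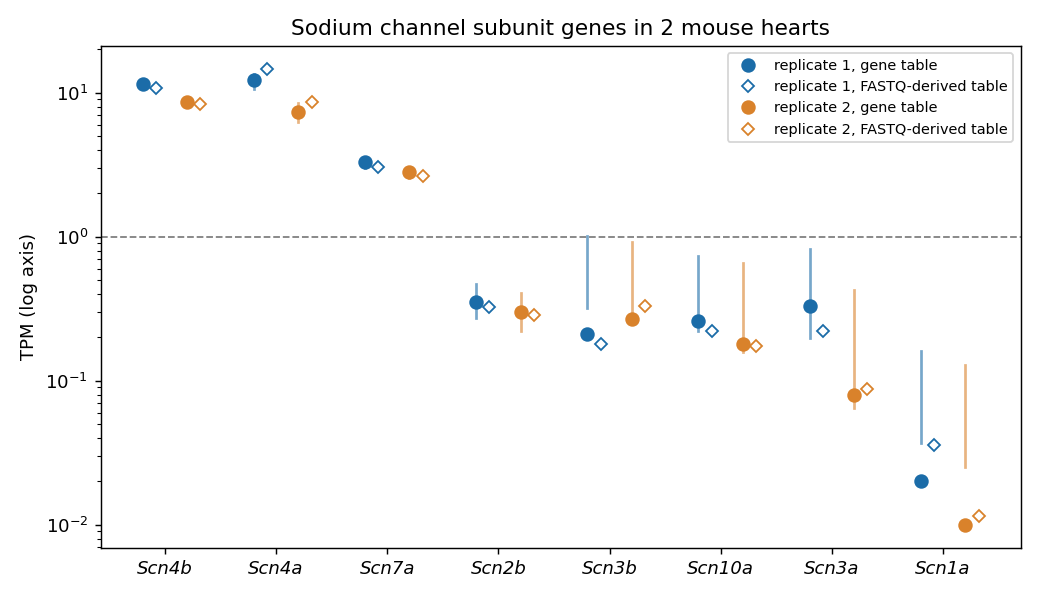
TPM (log axis) of the 8 genes in each heart, from the gene table (filled circles, with the deposited credibility bounds as lines) and the FASTQ-derived table (open diamonds), with a dashed line at 1 TPM. Scn4b, Scn4a and Scn7a lie above the line and the other 5 genes below it in both hearts and both tables.

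Among the beta subunits, Scn4b was the abundant one. Its product joins the alpha subunit through a disulfide bond and is known for a cytoplasmic tail that can block the open pore and give resurgent current. Scn4b (chr9:45138395-45154152, plus strand) had 11.46 and 8.65 TPM in replicates 1 and 2, from 1883 and 1432 counts, with credibility bounds of 10.72 to 11.73 TPM and of 8.04 to 8.92 TPM. Its mean of 10.1 ± 1.99 TPM (SD, n = 2) stood at the 79.3rd percentile of protein-coding genes. Scn4b has a single annotated transcript, and none of its 31-base words is shared with another gene. The FASTQ-derived table gave 10.78 and 8.384 TPM, so both tables put replicate 1 above replicate 2.

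Scn2b and Scn3b were low in both hearts. Scn2b, the other beta subunit that links by a disulfide bond, is the upstream neighbour of Scn4b at chr9:45117782-45130070 on the same strand, with 8324 bases between them. Scn2b had 0.35 and 0.30 TPM in replicates 1 and 2, from 54 and 44 counts (mean 0.325 ± 0.0354 TPM, SD, n = 2). Scn3b, which binds alpha subunits without a covalent bond (chr9:40269217-40291618, plus strand), had 0.21 and 0.27 TPM from 27 and 25 counts (mean 0.240 ± 0.0424 TPM, SD, n = 2). The values of Scn2b were above those of Scn3b without overlap in the gene table, but the order did not hold under other estimates. By the deposited posterior mean TPM it turned, at 0.37 and 0.31 for Scn2b against 0.64 and 0.58 for Scn3b, and in the FASTQ-derived table they overlapped, at 0.327 and 0.288 TPM for Scn2b against 0.181 and 0.332 TPM for Scn3b. Together the 3 beta genes made up 42.8% and 46.9% of the summed TPM (44.9% ± 2.88, SD, n = 2), nearly all of it Scn4b.

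Scn4a encodes the alpha subunit of skeletal muscle. As a gene it had 12.16 and 7.38 TPM in replicates 1 and 2, from 1331 and 871 counts (mean 9.77 ± 3.38 TPM, SD, n = 2; 78.9th percentile), with bounds of 10.55 to 13.47 TPM and of 6.217 to 8.432 TPM. Its range overlapped that of Scn4b, and in the FASTQ-derived table it lay higher, at 14.63 and 8.579 TPM, again overlapping Scn4b. Replicate 1 was the higher heart, and the bounds of the hearts do not overlap, which also holds for Scn4b and Scn7a. These levels are not set against the median gene: of 11876 genes compared below, 79.3% had the higher TPM in replicate 1. Relative to the median gene, the log2 ratio of Scn7a between the hearts was 0.04. Each pair of bounds comes from 1 library and does not cover variation between animals.

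About 1 in 20 of the Scn4a counts carried about as much TPM as all the others. Scn4a-201 held 1257 and 829 counts and 5.75 and 3.76 TPM in replicates 1 and 2. Scn4a-202 held 74 and 42 counts and 6.41 and 3.61 TPM. It thus took 5.56% (exact binomial 95% interval 4.39% to 6.93%) and 4.82% (3.50% to 6.46%) of the counts, but 52.7% and 49.0% of the TPM. In the FASTQ-derived table Scn4a-202 had 5.41% and 4.55% of the counts and 64.0% and 59.4% of the TPM. Per usable base, Scn4a-202 had 21.57 and 12.24 counts per 100 effective bases, and Scn4a-201 had 19.34 and 12.76. The ratio of these densities, Scn4a-202 over Scn4a-201, was 1.12 (95% interval 0.870 to 1.41) in replicate 1 and 0.960 (0.687 to 1.31) in replicate 2. Both intervals hold a ratio of 1, and they cover counting error only.

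**Figure D3:**
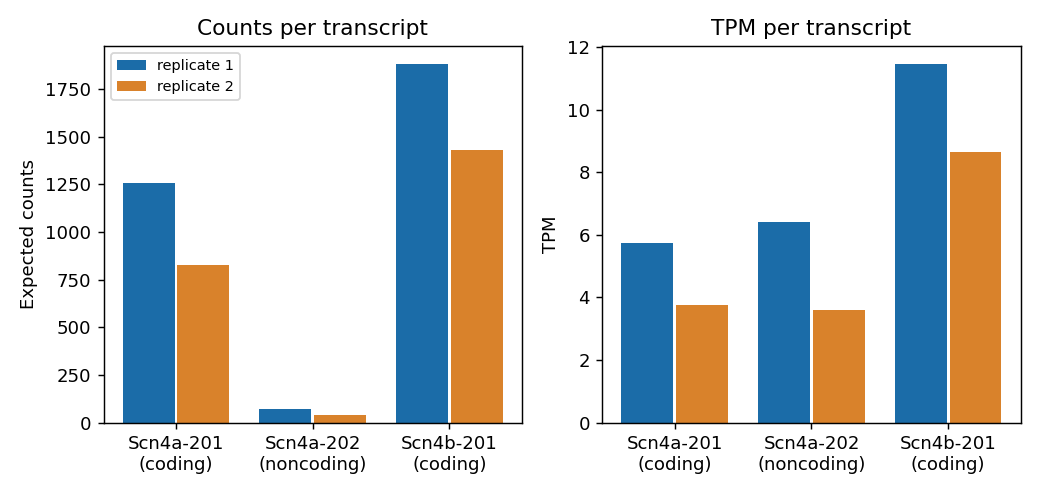
Expected counts (left) and TPM (right) of the coding and noncoding Scn4a transcripts and of the single Scn4b transcript in each heart; bars are single libraries. Scn4a-202 holds 74 and 42 counts but 6.41 and 3.61 TPM, close to the 5.75 and 3.76 TPM of Scn4a-201.

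With Scn4a-202 left out, the order of the leading genes no longer overlaps. The coding transcript alone averaged 4.76 ± 1.41 TPM (SD, n = 2), and treating both transcripts as 1 molecule gave 5.70 and 3.70 TPM. The ratio Scn4b over Scn4a was 0.942 and 1.17 in replicates 1 and 2 at the level of the gene, and 1.99 and 2.30 against the coding transcript (2.15 ± 0.219, SD, n = 2). In the FASTQ-derived table the ratio to the coding transcript was 2.05 and 2.41. The beta share of the summed TPM became 55.5% and 57.5%. Leaving out this transcript was chosen after its values were seen. Among 9849 expressed protein-coding genes with several transcripts, 111 (1.13%) likewise had 40% or more of their TPM on transcripts under 500 bases that held under 10% of their counts, limits that were also set after the Scn4a values were seen.

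Markers of skeletal muscle were measured beside Scn4a. Of 10 such genes 5 were expressed, with summed levels of 18.12 and 18.62 TPM and none at 0 counts in both hearts. The 3 highest were Mylpf, a fast myosin light chain (5.14 ± 0.0849 TPM), Tnnt3, fast troponin T (3.67 ± 0.0919 TPM), and Myh4, a fast myosin heavy chain (3.09 ± 0.460 TPM; SD, n = 2 each). None of the 6 compared markers was higher in replicate 1 after centring on the median gene, whereas Scn4a was. Their part in the level of Scn4a was not tested.

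Scn7a was the other expressed alpha gene. Its product resembles a sodium channel but is known as a sensor of extracellular sodium that voltage does not open. Scn7a (chr2:66673425-66784914, minus strand) had 3.28 and 2.79 TPM in replicates 1 and 2, from 798 and 684 counts, and its mean was 3.04 ± 0.347 TPM (SD, n = 2; 61.2nd percentile). The credibility bounds were 2.99 to 3.434 TPM and 2.533 to 2.943 TPM, and the FASTQ-derived levels were 3.054 and 2.649 TPM. It lay below Scn4a and above Scn2b without overlap, and Scn4b over Scn7a was 3.49 and 3.10. Scn7a has 1 annotated transcript and shares 0.0547% of its 31-base words with other genes.

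Scn7a is known from glia, Schwann cells and neurons, so markers of these and of other heart cells stand beside it. Of 10 Schwann cell and glia genes 2 were expressed, with summed levels of 8.82 and 7.15 TPM and none at 0 counts; the highest were Erbb3, a neuregulin receptor (2.95 ± 0.0707 TPM), and Mbp, myelin basic protein (1.84 ± 0.191 TPM; SD, n = 2 each). All 8 fibroblast genes were expressed, at a sum of 213.5 and 176.8 TPM, led by the matrix genes Dcn (112.7 ± 12.3 TPM), Col3a1 (21.1 ± 3.73 TPM) and Col1a2 (17.5 ± 4.70 TPM). So were all 7 endothelial genes, at a sum of 407.3 and 345.8 TPM, led by Fabp4 (197.9 ± 5.90 TPM), Egfl7 (47.4 ± 12.95 TPM) and Pecam1 (38.1 ± 8.20 TPM; SD, n = 2 each). Of 14 neuron genes 2 were expressed, Uchl1, a ubiquitin hydrolase (2.21 ± 0.262 TPM), and Stmn2, a regulator of microtubules (2.11 ± 0.120 TPM), and the sum was 5.38 and 5.70 TPM; Dbh, of noradrenaline synthesis, followed at 0.560 ± 0.156 TPM. The transmitter genes Chat, Th and Slc18a3 had 0 counts in both hearts in the gene table; in the FASTQ-derived table Th had 0.0342 TPM in replicate 1. The part of these cells in the levels of Scn7a and of the neuronal alpha genes was not tested.

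Scn10a, Scn3a and Scn1a encode alpha subunits known from sensory neurons (Scn10a) and brain (Scn3a and Scn1a). Scn10a (chr9:119608456-119719322, minus strand) had 0.26 and 0.18 TPM in replicates 1 and 2, from 55 and 40.01 counts (mean 0.220 ± 0.0566 TPM, SD, n = 2). Scn3a (chr2:65457118-65567627, minus strand) had 0.33 and 0.08 TPM from 60.12 and 23.12 counts (mean 0.205 ± 0.177 TPM, SD, n = 2). Scn3b, Scn10a and Scn3a had overlapping ranges as neighbours in the order of levels. Scn1a (chr2:66270778-66440840, minus strand) was lowest without overlap, at 0.02 and 0.01 TPM from 4.08 and 1.13 counts. Scn3a and Scn1a shared 9.57% and 7.29% of their 31-base words with other genes, and Scn10a 3.03%. How far reads of shared words entered their counts was not tested. Scn10a is also discussed in cardiac conduction; of 10 conduction system markers 5 were expressed, at a sum of 52.73 and 39.6 TPM, led by Bmp10 (20.6 ± 10.1 TPM), which is known as a growth factor of the atria too and supplies 27.8 and 13.47 TPM of these sums, Irx3 (11.6 ± 2.00 TPM) and the connexin gene Gja5 (6.02 ± 0.0990 TPM; SD, n = 2 each), and their part in Scn10a was not tested. The annotated genes on the opposite strand of Scn2b, Scn3b, Scn3a and Scn1a (Gm10684, Gm47266, Gm13595 and Gm13630) had 0 counts in both hearts.

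Scn4b and Scn7a have 1 annotated transcript each, and for Scn2b the same transcript led in both hearts and both tables: Scn2b-202 held 100% and 60.0% of the TPM in the alignment-derived table and 100% and 89.4% in the FASTQ-derived one. For the other low genes the leading transcript differed between hearts or tables. For Scn10a, all of the TPM of replicate 1 went to Scn10a-201 in both tables. In replicate 2, Scn10a-201 held 63.2% in the alignment-derived table but 0.186% in the FASTQ-derived one, where Scn10a-202 held 99.8%. Among other differences at their ends and at another junction, these transcripts differ by 3 bases at the start of 1 exon. That exon spans chr9:119633741-119633881 in Scn10a-201 and chr9:119633741-119633878 in Scn10a-202 (minus strand). Both versions are shown from GENCODE M21, with the extra bases in capitals, to show how small this difference in the coding sequence is; its part in the differing shares was not tested.
Scn10a-201 junction: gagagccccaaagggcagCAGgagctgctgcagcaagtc
Scn10a-202 junction: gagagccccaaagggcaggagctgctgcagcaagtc

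For Scn3a, the transcript Scn3a-203, a fragment of 365 bases, held 41.2% of the TPM of replicate 1 in the alignment-derived table on 1.26 of 60.12 counts. In the FASTQ-derived table Scn3a-203 had 0 counts, and Scn3a-202 held 94.7% and 78.9% of the TPM. Scn3a-202 held 20.6% in replicate 1 and 100% in replicate 2 of the alignment-derived table. In Scn3b, Scn3b-206 held 95.2% of the TPM in replicate 1 and 0% in replicate 2, where Scn3b-203 held 63.0%. The shares of Scn3b rest on at most 27 counts per heart.

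Replicate 1 had the higher count for 8 of 8 genes and the higher TPM for 7 of 8, Scn3b being the exception; relative to the median gene, 5 of 8 were higher in replicate 1. Replicate 1 is also the deeper library. Among 23512 genes with at least 1 count, 66.6% had the higher count in replicate 1, 65.4% the higher TPM and 45.8% a ratio above the median gene. Among the 11876 genes compared below 81.4% had the higher count and 79.3% the higher TPM there. TPM is scaled to the same total in both libraries, and the source of its shift was not tested. Over all compared genes the median log2 ratio of TPM + 0.1, replicate 1 over replicate 2, was 0.18, and the TPM ratios below are relative to that median. Count ratios below are relative to the median count ratio of the same genes, 0.12 on the log2 scale. The 3 genes that met the minimum for this comparison, a mean of 1 TPM and 20 counts, were all within 2-fold, where 1.41% of 11876 genes were beyond it. Scn4a had a centred log2 ratio of 0.53, at the 96.7th percentile of compared genes, Scn4b of 0.22 (84.5th) and Scn7a of 0.04 (58.7th). The range from the 5th to the 95th percentile ran from −0.49 to 0.44, so of these genes Scn4a alone lay outside it. That Scn4a ratio includes Scn4a-202, which held 52.7% and 49.0% of the TPM of the gene in replicates 1 and 2. The coding transcript alone, at 5.75 and 3.76 TPM, lies inside this range when its ratio is taken in the same way. In counts the log2 ratio was 0.43 for Scn4a (exact 95% counting interval 0.31 to 0.56), 0.22 for Scn4b (0.12 to 0.32) and 0.05 for Scn7a (−0.10 to 0.19).

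Among the low genes with at least 20 counts, Scn3a had the widest difference between the hearts. Its count ratio was 1.21 on the log2 scale (exact 95% counting interval 0.49 to 1.97), whereas the intervals of Scn2b (0.12, −0.48 to 0.73), Scn3b (−0.07, −0.91 to 0.78) and Scn10a (0.28, −0.33 to 0.91) held 0. So did that of Scn1a, which rests on about 5 counts in all (1.82, −1.51 to 7.44). With the minimum of 1 TPM dropped, 7 of the 8 genes were compared and Scn3a was the 1 past 2-fold, with a log2 ratio of TPM + 0.1 of 1.07, against 2.83% of 15305 genes. That ratio depends on the setting: it was 0.63 in the FASTQ-derived table and 0.14 with a pseudocount of 1 TPM, both under 2-fold, and 1.73 with a pseudocount of 0.01 TPM. With 1 library per heart, animal, dissection and library cannot be told apart. All 8 atrial and ventricular markers were expressed, led by Myl2, Myl3 (3976 ± 332 TPM, SD, n = 2) and Nppa. None of the 8 was 2-fold apart between the hearts. Of genes known from the atria, Nppa, a natriuretic peptide, had 700.02 and 393.72 TPM in replicates 1 and 2 (centred log2 ratio 0.65). The centred log2 ratio was 0.546 for Myl7, 0.485 for Myl4 and 0.41 for Sln, and 0.86 for Bmp10 of the conduction system list. All were under 2-fold, but all except Sln lay above the 95th percentile of 0.44, as Scn4a did with Scn4a-202 included. Of the 8 markers 4 had a ratio above 0, and Irx4, known from the ventricle, had −0.544. Most of the conduction system list went the other way from Bmp10: of its 6 compared genes 2 had a ratio above 0. Their median was −0.247, and Irx3 had −0.534. The genes named for these ratios were picked out after their values were seen. Their part in the differences of the sodium channel genes was not tested.

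**Figure D4:**
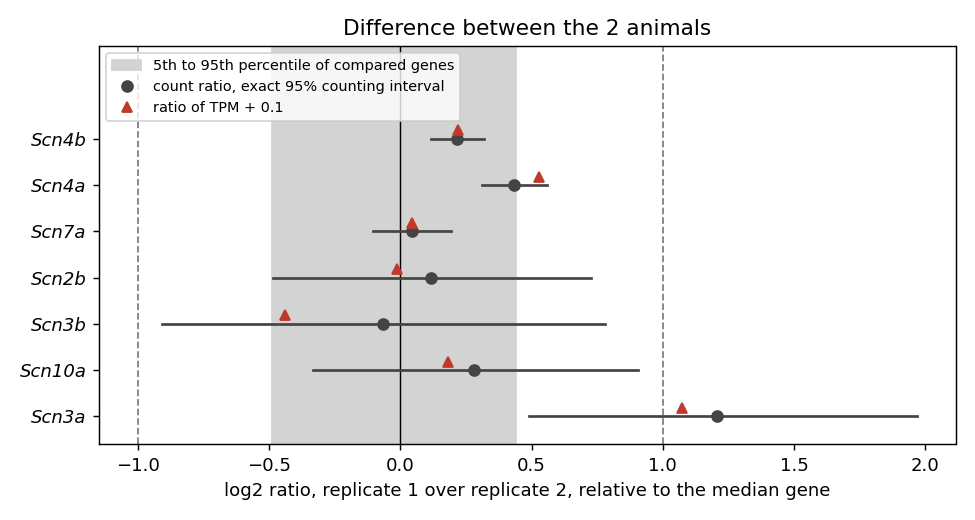
Log2 ratio, replicate 1 over replicate 2, relative to the median gene, for 7 of the 8 genes (Scn1a, with under 20 counts, is left out). Circles with lines are count ratios with exact 95% counting intervals, triangles are ratios of TPM + 0.1, the band spans −0.49 to 0.44, and dashed lines mark 2-fold; the intervals of Scn4b, Scn4a and Scn3a lie above 0.

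Of the 7 genes with at least 20 counts, 0 differed 2-fold in 1 direction in both hearts between the alignment-derived and the FASTQ-derived table, where 2.94% of 15305 genes did.

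Of 21 genes of proteins that bind, anchor, regulate or lie beside sodium channels 18 were expressed, against 48.7% of protein-coding genes. Their medians were 27.19 and 23.47 TPM in replicates 1 and 2, above the highest of the 8 channel genes in each heart. The highest were Gja1, the gap junction protein connexin that lies beside sodium channels at the intercalated disc (155.6 ± 19.6 TPM), and Ank2, an ankyrin that anchors membrane proteins (116.9 ± 17.6 TPM; SD, n = 2 each). Chosen after their values were seen, the fibroblast growth factor homologous factors, cytoplasmic proteins that bind the channel's tail and tune its inactivation, were uneven: Fgf13 had 44.63 and 41.64 TPM, Fgf12 had 4.85 and 2.51 TPM, Fgf11 had 1.20 and 0.79 TPM, and Fgf14 had 0.59 and 0.69 TPM. The third gene under the threshold was Sptbn4, a spectrin of excitable membranes, with 0.14 and 0.07 TPM. The median centred log2 ratio of the 18 compared partners was 0.09, and none was 2-fold apart between the hearts.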

How the data were processed

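Total RNA sequencing of 2 mouse hearts was analysed from deposited tables. Per the labels' protocols, libraries came from 300 ng of RNA with a directional kit and ribosomal RNA depleted. Per the deposited description files, values refer to mm10 and GENCODE M21, with 1 gene and 1 transcript table from transcriptome alignments and 1 transcript table from FASTQ reads; the sources used here do not name the tools. Per the file headers, the deposited tables hold expected counts or estimated counts, TPM, FPKM and isoform percent, and credibility bounds of TPM, recorded as a score in TPM units. FPKM entered as an alternative and the isoform percent no result; isoform shares were computed from TPM.

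Depth was 42223411 and 40553237 expected counts, and the FASTQ-derived tables summed to 43782858 and 41468698 estimated counts. The labels mention no molecular identifiers, so floors and exact binomial intervals cover counting error only, not variation between animals. Reads of the CAST/EiJ allele were assigned to a C57BL/6J reference.

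Expressed means at least 1 TPM in each heart. Log2 ratios used TPM + 0.1, which understates differences of low genes, and were taken relative to the median over genes averaging 1 TPM and holding at least 20 counts; the call was 2-fold. Neighbours in the order of levels were said to differ only where ranges over the 2 hearts did not overlap. The labels give separate animal numbers and the same donor identifier to both libraries, so n = 2 rests on the animal numbers. All 8 genes are named; of each other list the 3 of highest mean are, apart from items not reported here. Members and lists were chosen with earlier results of these data known. RefSeq promoter windows matched 6 of the 8 genes; a comparison of proteins was not run. Alternatives were another pseudocount, threshold or minimum, no centring, counts, posterior means, the FASTQ-derived table, rescaling to nuclear protein-coding genes and each heart alone. Python 3.11.15, numpy 2.4.6, pandas 2.3.3, scipy 1.17.1 and matplotlib 3.10.9 were used.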

Additional observations from a re-analysis of the deposited data

How the results depend on the processing

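Of 92 alternatives 69 moved their value by less than the spread between the hearts or left the count within 1.5 times, and 23 moved it by more. A single heart always lies closer to the mean of both hearts than their SD. The alternatives with each heart alone therefore could not move a level, share or ratio, and they are no check of it. Rescaling to nuclear protein-coding genes gave means of 28.15 TPM for Scn4b, 27.16 for Scn4a and 8.528 for Scn7a. Scn4a averaged 4.755 TPM with its coding transcript alone and 4.70 TPM with both transcripts as 1 molecule. With no minimum but 20 counts, 1 gene (Scn3a) was 2-fold apart between the hearts. The beta share of TPM was 41.12% in the FASTQ-derived table and 56.49% with the coding transcript of Scn4a alone, and the Scn4a-202 share of Scn4a TPM was 61.69% in the FASTQ-derived table. The mean log2 ratio of Scn4b over Scn4a, 0.07 as reported and smaller than the spread between the hearts, was 1.097 with the coding transcript and 1.117 with both joined, and it turned sign to −0.237 in the FASTQ-derived table and to −0.086 without replicate 2 (0.227 without replicate 1). The joined and coding-only values were chosen after seeing the data, and apart from what their construction fixes the causes were not tested. Of the 41 alternatives for the low genes 11 moved, namely 4 with posterior means (Scn3b averaged 0.61 TPM, against 0.24 as reported, and Scn10a 0.385 against 0.22), 5 rescaled and 2 in the FASTQ-derived table. Depth limits the low genes: Scn1a rests on under 20 counts. No paired analysis was possible because both hearts form 1 group. The protein comparison was not run.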

Other observations

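For 2 of the genes the deposited credibility bounds do not hold the plain TPM. Scn3b, with 0.21 and 0.27 TPM in replicates 1 and 2, has bounds of 0.317 to 1.01 TPM and of 0.301 to 0.911 TPM. Scn1a, with 0.02 and 0.01 TPM, has bounds of 0.0367 to 0.160 TPM and of 0.0253 to 0.128 TPM. Both genes have 8 or more annotated transcripts and few counts.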
